A study of Mus musculus with 96 samples.

Results

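Malat1, Neat1, Meg3, Miat and Rian are long RNAs that are retained in the nucleus and code for no known protein. The 5 genes were chosen by their symbols from 32594 genes counted in mRNA-seq libraries of the injured mouse brain, and the set was selected on the level of Malat1 at 29 days post-injury (dpi), which had been seen to differ between groups. Each of the 5 genes was found in the tables of both time points and passed the filter on low counts in every comparison. All values of Malat1 at 29 dpi are therefore given as a description without a test, as are the values of the other 4 genes in the 3 comparisons in which Malat1 had been picked (TBI + VH against Sham + VH in the hypothalamus, TBI + CD against Sham + VH in the hippocampus and in the thalamus). A standard error (SE) or interval shown with any of these values is not a test.

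The study asked how candesartan (CD), a blocker of the angiotensin AT1 receptor, alters gene expression after traumatic brain injury (TBI). Male C57BL/6 mice of 8 to 10 weeks received a controlled cortical impact (TBI) or, as sham, anesthesia with a scalp incision and no craniectomy, and each mouse was given either CD or vehicle (VH). Mice of the 3 dpi cohort were injected intraperitoneally with 0.1 mg/kg CD or VH at 6, 24 and 48 h, whereas mice of the 29 dpi cohort were injected once at 6 h, after which a pump implanted at 24 h released CD (0.1 mg/kg/day) or VH. The hippocampus, thalamus and hypothalamus of the injured side gave 96 libraries, 4 in each of 24 groups (sham or TBI with VH or CD, in 3 regions at 2 time points), named here Sham + VH, Sham + CD, TBI + VH and TBI + CD. The route of the drug differs between the time points as well as the time, and the sham mice had no opening of the skull. Sequenced samples were those of highest RNA quality in each group, so they are not a random draw of the animals.

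Total counts per library ran from 17150610 to 31253784 at 3 dpi and from 6663629 to 38589791 at 29 dpi. The 4 shallowest libraries, with 6663629 to 11283868 counts, were all from the hippocampus at 29 dpi: Sham + VH replicates 2 and 4, TBI + VH replicate 2 and Sham + CD replicate 1. Region markers followed the labels: in Sham + VH at 3 dpi the summed level of 7 hippocampal genes was 742 CPM (counts scaled to a common library size) in hippocampal libraries against 163 in thalamic and 174 in hypothalamic ones, and that of 7 thalamic genes was 2160 CPM in the thalamus against 129 and 190 in the hippocampus and hypothalamus. Hypothalamic genes summed to 1470 CPM in the hypothalamus, 341 in the thalamus and 7.02 in the hippocampus. Genes of the choroid plexus, a tissue that adjoins the hippocampus and thalamus, varied widely within groups, and their values stand beside the results they touch.

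Malat1 is found in nuclear speckles, bodies that store splicing factors, and is among the most abundant RNAs of neurons. Neat1 is the scaffold of paraspeckles: its long form nucleates these bodies together with RNA-binding proteins, and its short form shares the start of the long form but ends earlier at a poly(A) signal. Meg3 and Rian are transcribed from the maternal copy of the Dlk1-Dio3 imprinted domain, where they accompany clusters of microRNAs and small nucleolar RNAs. Miat, also known as Gomafu, is a neuronal RNA that gathers in nuclear bodies of its own and binds splicing factors.

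In the GRCm38 build (GENCODE vM21), Malat1 lies at chr19:5795690-5802672 and Neat1 at chr19:5824708-5845478, both on the minus strand and 22036 bases apart. Meg3 is at chr12:109541001-109571726 and Rian at chr12:109603940-109661716, both on the plus strand and 32214 bases apart, and Miat is at chr5:112213228-112229395 on the minus strand. The small nucleolar RNA gene DQ267101 lies inside Rian on the same strand, so reads of the 2 cannot be told apart here.

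The ends of these transcripts are shown because the libraries were made from RNA captured by its poly(A) tail, and the members differ in how they end. Malat1 and the long form of Neat1 are known to be cut by RNase P rather than cleaved at a poly(A) signal, and a genomically encoded A-rich tract folds back on U-rich stretches to protect the end. The first pair of sequences gives 130 bases up to the A-rich tract, with capitals on the stretches of at least 10 bases found in both windows. Malat1 is read from chr19:5795982-5796111 and the long form of Neat1 from chr19:5824708-5824837, both on the minus strand.
Malat1: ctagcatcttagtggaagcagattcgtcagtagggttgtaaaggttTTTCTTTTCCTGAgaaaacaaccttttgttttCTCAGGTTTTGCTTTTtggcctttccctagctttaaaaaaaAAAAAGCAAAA
Neat1 long form: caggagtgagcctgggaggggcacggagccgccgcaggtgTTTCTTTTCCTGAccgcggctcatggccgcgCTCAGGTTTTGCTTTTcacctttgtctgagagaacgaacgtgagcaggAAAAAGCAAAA

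The shared stretches were TTTCTTTTCCTGA (13 bases), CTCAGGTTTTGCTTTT (16 bases) and AAAAAGCAAAA (11 bases), in the same order in both RNAs. The annotated long form of Neat1 stopped at the tract, whereas 292 annotated bases of Malat1 followed it. The letters AAAAGCAAA occurred on the sense strand in the last 320 bases of 0.746% of 129970 annotated transcripts of at least that length, which include Malat1 and Neat1.

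The other ends hold the letters of a poly(A) signal, AATAAA or ATTAAA, shown in capitals in the last 60 bases. In Rian these letters lie in an A-rich stretch at the very end of the annotated transcript, which stops short of the end of the gene. Whether they act as a signal there was not tested. The short form of Neat1 is read from chr19:5842307-5842366 on the minus strand, Meg3 from chr12:109571667-109571726 on the plus strand, Miat from chr5:112213228-112213287 on the minus strand and Rian from chr12:109654950-109655009 on the plus strand.
Neat1 short form: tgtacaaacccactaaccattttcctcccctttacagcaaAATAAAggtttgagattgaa
Meg3: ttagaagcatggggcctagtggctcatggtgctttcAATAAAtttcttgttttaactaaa
Miat: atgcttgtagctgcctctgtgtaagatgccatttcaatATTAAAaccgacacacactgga
Rian: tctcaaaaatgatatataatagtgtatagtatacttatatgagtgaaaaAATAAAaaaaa

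Searched on the sense strand, AATAAA or ATTAAA was present in the last 60 bases of 34.5% of 141515 annotated transcripts. Among the members, 3 of 4 transcripts of Malat1, 1 of 4 of Neat1, 4 of 11 of Meg3, 2 of 6 of Miat and 4 of 20 of Rian held it. Counts here are per gene, so they do not separate the forms of Neat1 or the transcripts of the other members.

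Per kilobase of annotated exon, Meg3 had the highest level of the members in these libraries, with group means between 170.3 and 472.7 CPM per kb. Malat1 followed at 55.37 to 215 CPM per kb, Miat at 43.96 to 93.92, Rian at 18.85 to 34.45 and Neat1 at 0.4677 to 1.24. The level of Neat1 rests on the whole 20771-base gene, which spans both forms. The members end in different ways and the RNA was captured by its poly(A) tail, so this order need not be that of abundance in the tissue.

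At 29 dpi the direction of the Malat1 differences was not the same in each region, as a description of the values that led to the choice of these genes. In the hypothalamus TBI + VH stood above Sham + VH, while in the hippocampus and thalamus TBI + CD stood lowest of the 4 groups. Values are CPM scaled by TMM factors within each region and time point, and means are given ± SD with n = 4.

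In the hippocampus at 29 dpi the Sham + VH libraries held 1548, 1311, 1673 and 1475 CPM of Malat1 (1502 ± 151). The TBI + VH libraries held 1215, 1189, 1232 and 1450 CPM (1272 ± 120) and the Sham + CD libraries 1353, 1365, 1286 and 1309 CPM (1328 ± 37.1). The TBI + CD libraries held 1083, 936.9, 822.2 and 714 CPM (889 ± 158). All 4 TBI + CD libraries were below every library of the other groups, while those other groups overlapped. The log2 difference of TBI + CD was -0.76 (SE 0.105) from Sham + VH, -0.58 from Sham + CD and -0.52 from TBI + VH. Without the 4 shallow libraries, a setting chosen after seeing the data, the difference from Sham + VH was -0.86. Of 16832 genes tested, 0.119% were called for TBI + CD against Sham + VH, 0.529% for TBI + VH against Sham + VH and 0.356% for TBI + CD against Sham + CD, and 0 for the other pairs, all by edgeR. These shares are the background, where a call needs a Benjamini-Hochberg FDR (false discovery rate) below 0.05 together with a log2 change of more than 0.32 in size, the thresholds of the study. In the 19 pairs of groups, over all regions and time points, in which edgeR called 0 genes, 344 to 2269 genes had an unadjusted p under 0.05 and DESeq2 called 0 to 22.

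In the thalamus at 29 dpi Malat1 was 670.8, 733.5, 884.9 and 856.7 CPM in the Sham + VH libraries (786.5 ± 101). It was 770.5, 798.6, 680.5 and 716.4 CPM in TBI + VH (741.5 ± 53.1) and 653.5, 662.9, 630.4 and 638.8 CPM in Sham + CD (646.4 ± 14.6). In TBI + CD it was 603.2, 534.2, 457.1 and 506.2 CPM (525.2 ± 61). The TBI + CD libraries again lay below all the others, and the Sham + CD libraries lay between them and both VH groups without overlap. The log2 difference from Sham + VH was -0.58 (SE 0.0912) for TBI + CD and -0.28 for Sham + CD, and that of TBI + CD was -0.50 from TBI + VH and -0.30 from Sham + CD. Of 16957 genes, edgeR called 0% in each pair of groups of the thalamus at 29 dpi, where DESeq2 called 0 to 22 genes and 380 to 1549 had an unadjusted p under 0.05.

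In the hypothalamus at 29 dpi the Sham + VH libraries held 434.7, 499.2, 439.7 and 368.4 CPM of Malat1 (435.5 ± 53.5). The TBI + VH libraries held 911.4, 883.1, 962.3 and 730.8 CPM (871.9 ± 99.6), and all 4 exceeded every Sham + VH library. The Sham + CD libraries held 367.2, 357.7, 368.7 and 453 CPM (386.6 ± 44.5) and the TBI + CD libraries 610.7, 746.9, 436.2 and 497.3 CPM (572.8 ± 137). TBI + CD lay between TBI + VH and the sham groups and overlapped each of them. The log2 difference from Sham + VH was 1.002 (SE 0.14) for TBI + VH and 0.40 for TBI + CD, and that of TBI + CD from TBI + VH was -0.61. The share of the 17165 genes called by edgeR was 0.00583% for TBI + VH against Sham + VH and 0 for the other pairs, and nothing is read from the former, since it is a comparison on which the members were chosen.

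**Figure D1:**
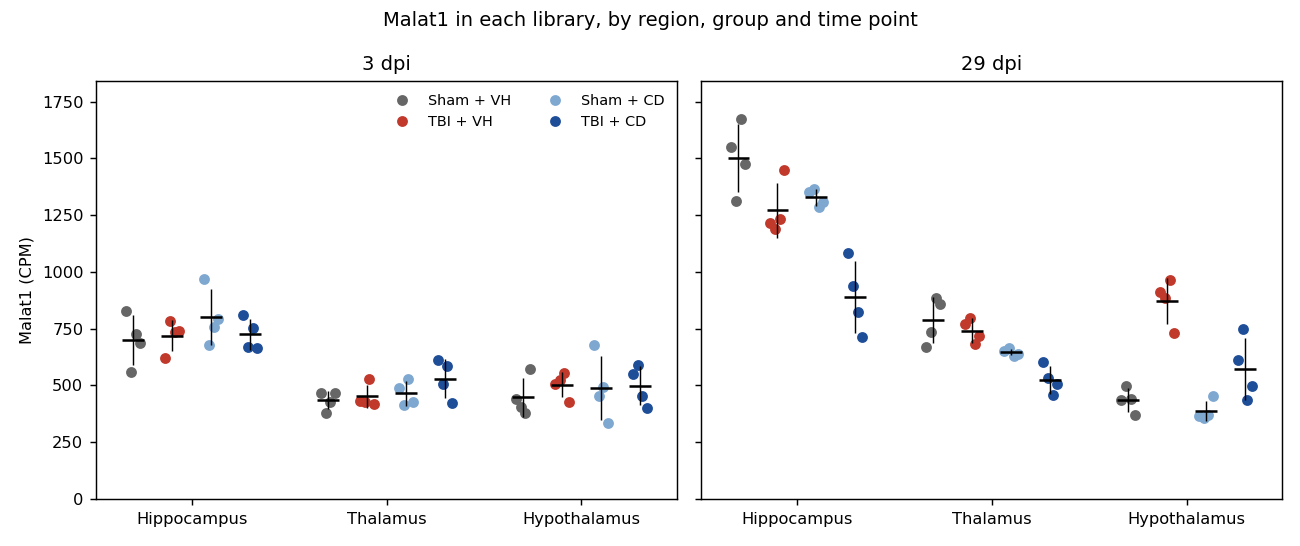
Malat1 in CPM (vertical axis, from 0) in each library of the 4 groups by region, at 3 dpi (left) and 29 dpi (right); points are libraries, bars the mean and vertical lines the SD (n = 4). At 29 dpi TBI + CD is lowest in the hippocampus (714 to 1083 CPM) and thalamus (457.1 to 603.2 CPM), and TBI + VH is highest in the hypothalamus (730.8 to 962.3 CPM), whereas the groups overlap at 3 dpi.

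Cell type markers of the hypothalamus at 29 dpi stand beside these values. Between Sham + VH and TBI + VH, the summed neuronal markers ranged from 6104 to 6673 and from 5867 to 6941 CPM, microglial markers from 320 to 342 and from 326 to 371 CPM, astrocyte markers from 3884 to 4324 and from 3988 to 4634 CPM, and oligodendrocyte markers from 4382 to 5417 and from 4287 to 8249.8 CPM. The genes listed for the choroid plexus spanned 86.8 to 109 CPM in Sham + VH and 84.6 to 111 CPM in TBI + VH. Over the 32 hypothalamic libraries Prlr (51.7 CPM) and Clic6 (25.1 CPM) averaged the highest of them, and Ttr averaged 10.5 CPM. Prlr was lower in the hippocampus (17.9 CPM), so in the hypothalamus this sum is not a measure of choroid plexus tissue. Blood genes summed to 2.79 to 28 CPM in Sham + VH and 11.8 to 51.7 CPM in TBI + VH (median log2 fold change 0.845 over 3 genes). The highest oligodendrocyte and blood sums of TBI + VH exceeded those of Sham + VH. EdgeR called no listed gene of these types in this comparison. It called only 0.00583% of all 17165 genes there, so a count of 0 shows nothing about the cell types. The part of these cell types in the level of Malat1 was not tested. In bulk tissue, fewer cells of a type and less RNA per cell cannot be told apart.

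In the hippocampus at 29 dpi the choroid plexus genes summed to 83.4 to 7439 CPM in Sham + VH and 213 to 3602 CPM in TBI + CD, the microglial markers to 378 to 446 and 452 to 541 CPM, and the neuronal markers to 8368 to 10148 and 8354 to 9054 CPM. In the thalamus the microglial markers summed to 315 to 341 CPM in Sham + VH and 358 to 929.68 CPM in TBI + CD, and the choroid plexus genes to 39.7 to 3881 and 50.7 to 1448 CPM. The part of these differences in the level of Malat1 was not tested.

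Lists around Malat1 are given for 2 of the 29 dpi comparisons on which it was chosen, in which so few genes were called (0.00583% and 0.119%) that a count of 0 is near the background. Of 18 nuclear speckle proteins tested, 0 were called for TBI + VH against Sham + VH in the hypothalamus (median log2 fold change -0.04, against 0.00162 for all genes) or for TBI + CD against Sham + VH in the hippocampus (-0.00731 against -0.00863). Of the other nuclear long RNAs, 0 of 22 and 0 of 21 were called, and of 18 genes within 250 kb of Malat1 0 in each. For Neat1, which lies next to Malat1, in the hypothalamus Sham + VH averaged 18.5 and TBI + VH 17.68 CPM, and in the hippocampus Sham + VH averaged 15.6 and TBI + CD 19.53 CPM.

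At 3 dpi Malat1 did not pass the threshold between any pair of groups. Its group means were 699.7 to 799.6 CPM in the hippocampus, 434.6 to 530.2 CPM in the thalamus and 448.2 to 502.9 CPM in the hypothalamus. In each of the 15 pairs the ranges of the groups overlapped, and the log2 differences ran from -0.14 to 0.29 with 95% intervals within -0.37 to 0.52. The edgeR quasi-likelihood F test called 0 of the 15 and DESeq2 called 0, while 1 pair had an unadjusted p under 0.05, TBI + CD against Sham + VH in the thalamus (0.29, SE 0.114, FDR = 0.549). The 3 dpi and 29 dpi tables come from separate cohorts that were normalized separately, so their levels were not compared by a test.

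The drug and the injury did not interact in these RNAs at the threshold. For the 27 interaction tests of the 5 members that could be made, the edgeR test called 0 and DESeq2 called 0, with 1 at an unadjusted p under 0.05, Miat in the hypothalamus at 29 dpi (0.26, SE 0.0998, FDR = 0.791). For Malat1 at 29 dpi the same quantity is given without a test: hippocampus -0.34, thalamus -0.21 and hypothalamus -0.44. Over all genes, edgeR called 0% for the interaction in each region and time point, whereas DESeq2 called 0 to 325 genes, and 386 to 2196 had an unadjusted p under 0.05.

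Neat1 rose in the hippocampus after injury at 3 dpi, and Miat fell there between the CD-treated groups. The hippocampus at 3 dpi was the region and time point with the most genes called, 10.7% of 16756 for TBI + VH, 1.5% for Sham + CD and 12.1% for TBI + CD against Sham + VH, and 20.1% for TBI + CD against Sham + CD, so a call of a single member there sits on a high background. EdgeR called no gene between TBI + CD and TBI + VH.

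The hippocampal Sham + VH libraries held 13.25, 13.31, 9.881 and 14.81 CPM of Neat1 (12.81 ± 2.08), from 332, 320, 241 and 405 counts. The TBI + VH libraries held 23.73, 15.35, 24.81 and 22.29 CPM (21.54 ± 4.26). All 4 lay above every Sham + VH library. The difference was 1.68-fold (log2 0.75, SE 0.179, FDR = 0.00752, edgeR quasi-likelihood F test) and was called.

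The Sham + CD libraries held 11.27, 8.26, 8.724 and 10.61 CPM of Neat1 (9.716 ± 1.45) and the TBI + CD libraries 26.14, 16.29, 15.02 and 16.35 CPM (18.45 ± 5.16). The groups did not overlap, and replicate 1 of TBI + CD stood well above the other 3. TBI + CD exceeded Sham + CD 1.89-fold (log2 0.92, SE 0.184, FDR = 0.00103), which was called. Against Sham + VH the log2 difference of TBI + CD was 0.52 (SE 0.18, FDR = 0.0559), not called by edgeR and called by DESeq2 (FDR = 0.032) and with total counts as library sizes (FDR = 0.0487). The difference of Sham + CD from Sham + VH was -0.40 (FDR = 0.321) and that of TBI + CD from TBI + VH -0.23 with a 95% interval of -0.58 to 0.11.

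**Figure D2:**
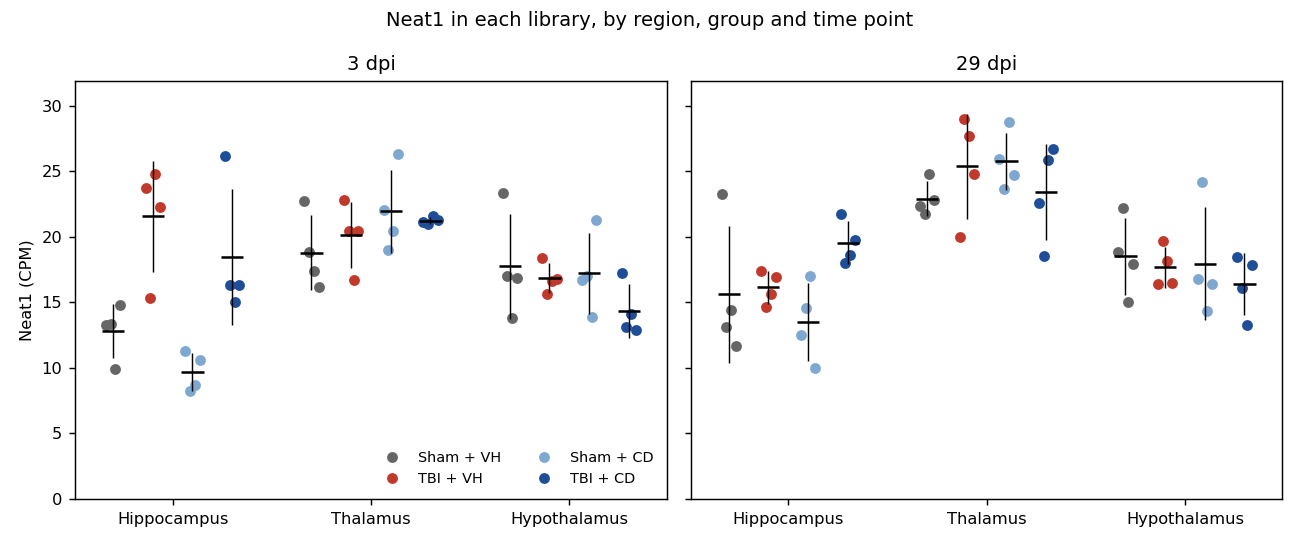
Neat1 in CPM (vertical axis, from 0) in each library by region and group, at 3 dpi (left) and 29 dpi (right); points are libraries, bars the mean and vertical lines the SD (n = 4). In the hippocampus at 3 dpi TBI + VH (15.35 to 24.81 CPM) and TBI + CD (15.02 to 26.14 CPM) lie above Sham + VH (9.881 to 14.81 CPM) and Sham + CD (8.26 to 11.27 CPM).

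Cell type markers moved with Neat1 in the hippocampus at 3 dpi. All 11 microglial markers and 6 of 8 astrocyte markers were called higher in TBI + VH than in Sham + VH, with a median log2 fold change of 1.92 and 0.58 against -0.01 for all genes. Their summed levels in Sham + VH and TBI + VH were 412 to 437 and 976 to 1609 CPM for microglia, and 4846 to 5676 and 8425 to 10452 CPM for astrocytes. Markers of oligodendrocyte precursors rose for 3 of 6, while 0 of 13 neuronal markers were called, their sum being 8809 to 9216 CPM in Sham + VH and 7691 to 8452 CPM in TBI + VH. The part of the glial genes in the rise of Neat1 was not tested.

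Choroid plexus genes moved the other way: 10 of 10 were called lower in TBI + VH, with sums of 204.99 to 6670.1 CPM over the Sham + VH libraries and 25.9 to 168 CPM over those of TBI + VH, and of these genes Tmem72 was at 0 in some libraries and none in all. In Sham + CD and TBI + CD they summed to 63.2 to 118 and 25.9 to 2673 CPM. With these genes as a covariate, a setting chosen after seeing the data, the log2 difference of Neat1 was 1.22 for TBI + VH (FDR = 0.00343) and 0.84 for TBI + CD (FDR = 0.00862) against Sham + VH, and 0.82 (FDR = 0.000791) for TBI + CD against Sham + CD. The sums did not overlap between Sham + VH and TBI + VH. For that pair the fit cannot separate the covariate from the group, and nothing is read from the value of 1.22.

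The difference of the injured groups from Sham + VH in Neat1 was more positive in the hippocampus than in the hypothalamus, where Neat1 did not rise. Hypothalamic means at 3 dpi were 17.76 CPM in Sham + VH, 16.85 CPM in TBI + VH and 14.33 CPM in TBI + CD. The difference between regions for TBI + CD thus holds a lower hypothalamic mean as well as a higher hippocampal one. The difference from Sham + VH was not the same in these regions, by a log2 value of 0.81 (SE 0.229, FDR = 0.021) for TBI + VH and 0.81 (SE 0.231, FDR = 0.0217) for TBI + CD. Both were called, in the fit over the 48 libraries of 3 dpi. The value for TBI + CD holds the drug as well as the injury, since that group is set against Sham + VH. The background was 5.82% of 17788 genes called for TBI + VH and 6.27% for TBI + CD. Against the thalamus the differences were 0.63 (FDR = 0.136) and 0.32 (FDR = 0.564) and were not called (3.88% and 4.33% of genes called), and between thalamus and hypothalamus 0% of genes were called for either effect. For the other 4 members no effect at 3 dpi was called as different between regions.

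In the thalamus and hypothalamus Neat1 stayed at 18.79 to 21.94 CPM and 14.33 to 17.76 CPM over the groups at 3 dpi, with no call. At 29 dpi its group means were 13.52 to 19.53 CPM in the hippocampus, 22.91 to 25.75 CPM in the thalamus and 16.4 to 18.5 CPM in the hypothalamus. The one tested pair at an unadjusted p under 0.05 was TBI + CD against Sham + CD in the hippocampus, with a log2 difference of 0.52 (FDR = 0.289).

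Some genes near Neat1 were called higher in the same comparison. Of 23 genes within 250 kb of Neat1 at a mean of at least 1 CPM, 4 were called higher and 0 lower in TBI + VH against Sham + VH in the hippocampus at 3 dpi (median log2 fold change 0.12 against -0.01 for all genes, of which 10.7% were called in either direction): Slc25a45 (log2 1.27), Frmd8 (0.93), Sipa1 (0.79) and Pola2 (0.36). Frmd8 lies 4224 bases from Neat1 on the same strand and averaged 21.3 ± 3.82 CPM (Sham + VH), 40.4 ± 6.79 CPM (TBI + VH), 18.6 ± 1.82 CPM (Sham + CD) and 35.4 ± 2.63 CPM (TBI + CD). In TBI + CD against Sham + CD, 7 of the 23 were called higher, against 20.1% of all genes called in either direction. Whether the counts of Neat1 and Frmd8 share reads could not be checked from gene counts.

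Of 14 proteins of paraspeckles, 0 were called by edgeR for TBI + VH against Sham + VH in the hippocampus at 3 dpi (median log2 fold change -0.03, against -0.01 for all genes and 10.7% of all genes called), which for a list of this size is near the background. Among the most abundant were Matr3 (-0.06), Ewsr1 (0.00) and Tardbp (-0.09), none of which was called. For TBI + CD against Sham + CD, with 20.1% of all genes called, 1 of the 14 was called, Matr3, a nuclear matrix protein, which fell by 0.33 on the log2 scale (SE 0.0709, FDR = 0.00161).

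Miat differed between the CD-treated groups of the hippocampus at 3 dpi. The Sham + CD libraries held 871.1, 728.7, 810.7 and 957.3 CPM (842 ± 96.5) and the TBI + CD libraries 643.5, 680.2, 574.3 and 645.8 CPM (636 ± 44.4), without overlap. The log2 difference was -0.40 (0.755-fold, SE 0.108, FDR = 0.00798), which was called. The Sham + VH libraries held 829.3, 798, 633.5 and 761.9 CPM (755.7 ± 86) and the TBI + VH libraries 480.6, 667.5, 632.9 and 677.8 CPM (614.7 ± 91.4). These overlapped, and the log2 differences from Sham + VH were -0.30 for TBI + VH (FDR = 0.0814) and -0.25 for TBI + CD (FDR = 0.13), not called.

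With choroid plexus genes as a covariate, chosen after seeing the data, the difference of Miat between TBI + CD and Sham + CD was -0.44 (FDR = 0.0024) and that of TBI + VH from Sham + VH was -0.07 (FDR = 0.893). The choroid plexus sums of Sham + VH and TBI + VH did not overlap. For that pair the fit cannot separate the covariate from the group, and nothing is read from the value of -0.07. Neuronal markers fell between Sham + CD and TBI + CD, with 4 of 13 called lower in TBI + CD (median log2 fold change -0.27 against -0.00242 for all genes) and summed levels of 9521 to 9669.8 CPM in Sham + CD and 7688 to 8907 CPM in TBI + CD. Their part in the fall of Miat was not tested.

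Of the splicing factors known to associate with Miat, 1 of 5 tested was called lower in TBI + CD than in Sham + CD, Rbfox1 (-0.39, SE 0.0969, FDR = 0.0051), a neuronal splicing factor, and 0 of 5 in TBI + VH against Sham + VH. These counts are near the 20.1% and 10.7% of all genes called and are no result about the list. Of 7 genes near Miat, 1 was called higher in both comparisons, also near those shares, Crybb1 (0.75 for TBI + VH against Sham + VH, FDR = 0.0103).

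Meg3 and Rian were lower in TBI + CD than in Sham + CD in the hippocampus at 3 dpi, by amounts under the fold threshold. Meg3 was 4176, 3575, 4381 and 3598 CPM in Sham + CD and 2906, 3452, 3105 and 3351 CPM in TBI + CD, without overlap. The log2 difference was -0.30 (SE 0.087, FDR = 0.0142). Rian was 415.2, 408.3, 427 and 371.7 CPM in Sham + CD and 313.1, 353.3, 358.6 and 367.9 CPM in TBI + CD, also without overlap, with a log2 difference of -0.22 (SE 0.0642, FDR = 0.0137). Both passed the FDR and not the fold threshold. Against Sham + VH the TBI + VH group differed by -0.23 in Meg3 (FDR = 0.0906) and -0.18 in Rian (FDR = 0.069), neither of which passed the FDR. Of the other genes of the Dlk1-Dio3 domain, 0 of 3 tested were called in these hippocampal comparisons.

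**Figure D3:**
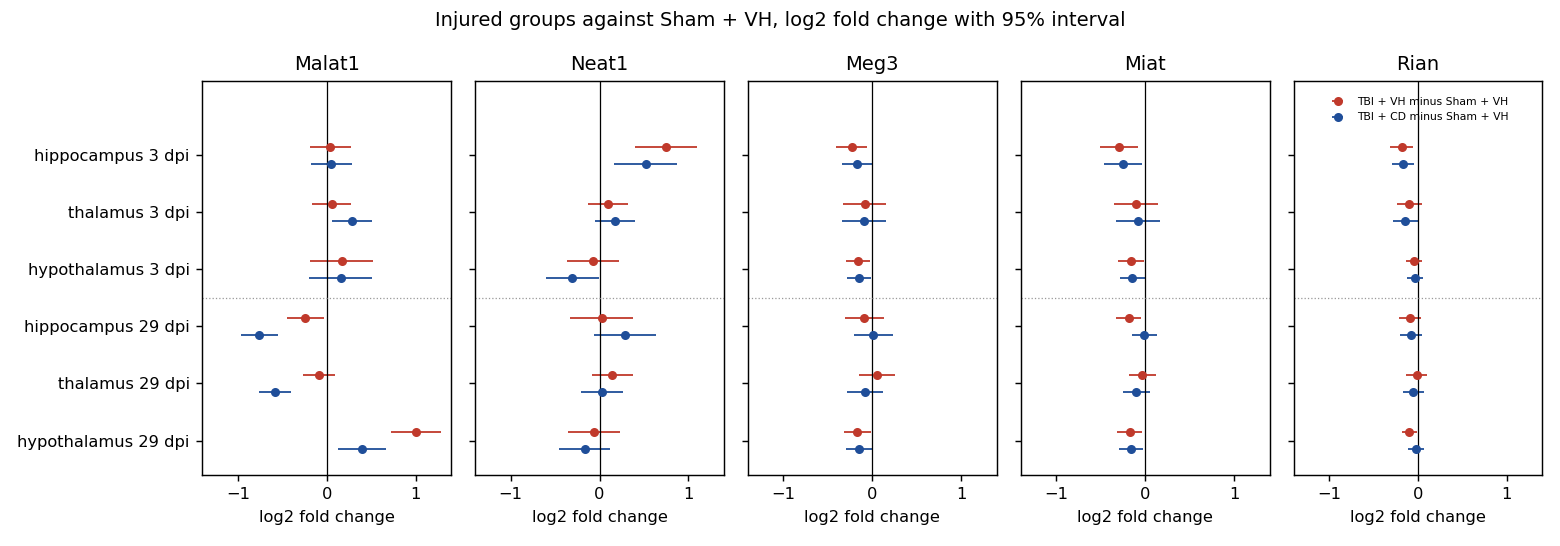
Log2 fold change (horizontal axis) of TBI + VH and of TBI + CD against Sham + VH for each member, with 95% intervals from the edgeR fit, in the 3 regions at 3 dpi (above the dotted line) and 29 dpi (below). Neat1 stands apart from 0 in the hippocampus at 3 dpi (0.75 and 0.52), and the Malat1 values at 29 dpi, shown as a description, lie at -0.76 and -0.58 for TBI + CD in the hippocampus and thalamus and at 1.002 for TBI + VH in the hypothalamus. The intervals of Malat1 at 29 dpi are not a test, since Malat1 was chosen on these values. The same holds for the other members in the comparisons that picked it.

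Outside the hippocampus at 3 dpi no member was called in any tested pair of groups. Over all 6 combinations of region and time point, 123 pairs were tested for the 5 members, of which edgeR called 3 and DESeq2 4, and 21 had an unadjusted p under 0.05. The 3 calls and 12 of the 21 fell in the hippocampus at 3 dpi, with 25 tests. Against Sham + VH, edgeR called 10.7% (TBI + VH), 1.5% (Sham + CD) and 12.1% (TBI + CD) of all genes there. It called 20.1% for TBI + CD against Sham + CD and 0% for TBI + CD against TBI + VH. The 3 of 25 lie within the range of these shares and are no result about the members as a set. In the thalamus at 3 dpi, with a background of 0.298% of 16762 genes for TBI + VH and 0.418% for TBI + CD against Sham + VH and 0.179% for TBI + CD against Sham + CD, edgeR and DESeq2 called 0 of 25, with 1 at an unadjusted p under 0.05. In the hypothalamus at 3 dpi edgeR called 0% of genes in each pair, with 353 to 936 at an unadjusted p under 0.05 and 0 to 3 called by DESeq2, and both tools called 0 of 25 for the members, with 3 at an unadjusted p under 0.05. At 29 dpi both called 0 of 16 in each region, with 3, 0 and 2 at an unadjusted p under 0.05 in the hippocampus, thalamus and hypothalamus.

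Among the other nuclear long RNAs, 1 of 21 tested was called higher in TBI + VH than in Sham + VH in the hippocampus at 3 dpi, where 10.7% of all genes were called. This was H19, an imprinted RNA that is high in the embryo and low in most adult tissue, with 3 to 7 counts in the Sham + VH libraries and 66 to 342 in the TBI + VH libraries (0.237 and 8.56 CPM on average). The most abundant of the list, Snhg11 (log2 -0.18), Peg13 (-0.15), Gas5 (0.04) and Tug1 (-0.11), were not called. For TBI + CD against Sham + CD 1 was called higher, H19 again, and 4 lower: Snhg14 (-0.56), Dlx6os1 (-0.41), Kcnq1ot1 (-0.40) and Peg13 (-0.35), of which Peg13 and Kcnq1ot1 are imprinted. The median of the list was -0.14, against -0.00242 for all genes, and its 5 calls among 21 genes are near the 20.1% of all genes called. Of 18 nuclear speckle proteins 0 were called in these comparisons, the most abundant being Srrm2, Son, Sf3b1 and Srsf1 with log2 differences of -0.26, -0.24, -0.23 and -0.12 between TBI + CD and Sham + CD.

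The members differed between regions in the vehicle-treated sham mice (Sham + VH). At 3 dpi, with a background of 40.9%, 46.7% and 28.6% of 17788 genes called between hippocampus and thalamus, hippocampus and hypothalamus, and thalamus and hypothalamus, Malat1 and Miat were higher in the hippocampus and Meg3 and Rian lower. At 29 dpi the background was 39.3%, 45% and 32.9% of 17935 genes. Calls for the members are therefore in the range in which 28.6% to 46.7% of genes differ. The labels do not say which libraries of different regions come from the same mouse, so regions were treated as independent.

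Malat1 at 3 dpi was 826.9, 559.2, 724.2 and 688.5 CPM in the hippocampal Sham + VH libraries, 466.4, 380.4, 426.8 and 464.6 CPM in those of the thalamus and 439.6, 403.8, 377.3 and 572.1 CPM in those of the hypothalamus. The hippocampus was higher than the thalamus by 0.76 on the log2 scale (SE 0.151, FDR = 3.57e-05), without overlap, and than the hypothalamus by 0.83 (SE 0.151, FDR = 7.63e-06). Thalamus and hypothalamus differed by 0.07 (95% interval -0.23 to 0.36). At 29 dpi the Sham + VH values, a description, gave log2 differences of 1.02 between hippocampus and thalamus, 1.95 between hippocampus and hypothalamus and 0.93 between thalamus and hypothalamus.

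Miat was highest in the hippocampus and lowest in the thalamus at both time points. At 3 dpi the Sham + VH libraries of the thalamus held 420.9, 488.3, 370 and 524.1 CPM and those of the hypothalamus 634.1, 593.2, 704.5 and 708.6 CPM. The hippocampus exceeded the thalamus by 0.82 (FDR = 4.35e-08) and the hypothalamus by 0.39 (FDR = 0.00293), and the thalamus was below the hypothalamus by a log2 difference of -0.44 (FDR = 0.00151). At 29 dpi the same differences were 0.99 (FDR = 1.1e-14), 0.61 (FDR = 3.94e-09) and -0.38 (FDR = 4.73e-05), the last under the fold threshold without hypothalamic replicate 4 (-0.30), thalamic replicate 1 (-0.31) or thalamic replicate 4 (-0.31). With total counts as library sizes, the difference between hippocampus and hypothalamus at 3 dpi was 0.19 and was not called.

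Meg3 had its lowest mean in the hippocampus, where Miat was highest, and its highest mean in the hypothalamus. The Sham + VH libraries at 3 dpi held 3730, 3608, 3345 and 3800 CPM in the hippocampus, 5566, 6754, 5462 and 7541 CPM in the thalamus and 8149, 7662, 8929 and 8873 CPM in the hypothalamus. The hippocampal libraries lay below all of the others. Thalamus (up to 7541 CPM) and hypothalamus (from 7662 CPM) were close. That gap is not read as a lack of overlap, given the log2 scaling of -0.0994 between these regions in the fit of 48 libraries. The log2 difference of the hippocampus was -0.73 (FDR = 7.07e-08) from the thalamus and -1.02 (FDR = 1.73e-11) from the hypothalamus at 3 dpi, and -0.45 (FDR = 0.000354) and -0.79 (FDR = 2.45e-08) at 29 dpi. Between thalamus and hypothalamus it was -0.29 (FDR = 0.0173) at 3 dpi, under the fold threshold, and -0.34 (FDR = 0.00753) at 29 dpi, which was under that threshold with DESeq2, RLE factors or no filter (-0.32 to -0.30) and in 10 of 12 fits that left out 1 library.

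Rian, like its neighbour Meg3, was lowest in the hippocampus, with 426.8, 364.8, 399.8 and 370.5 CPM at 3 dpi against 571.5, 608.5, 541 and 590.6 CPM in the thalamus and 587.2, 622.5, 655.5 and 647.8 CPM in the hypothalamus. The hippocampus was lower than both regions without overlap, by log2 differences of -0.49 (FDR = 8.2e-09) and -0.50 (FDR = 4.9e-09). At 29 dpi they were -0.30 (FDR = 2.34e-05, under the fold threshold) and -0.34 (FDR = 3.42e-06), the latter under that threshold when any of 5 single libraries was left out (-0.32 to -0.28). The difference from the thalamus at 29 dpi was past the threshold with DESeq2, RLE factors, no filter, the 12 Sham + VH libraries alone or total counts (-0.40 to -0.32), and in 8 of 12 fits that left out 1 library (-0.35 to -0.29 over the 12). Thalamus and hypothalamus differed by -0.01 at 3 dpi (95% interval -0.13 to 0.12) and -0.03 at 29 dpi (-0.15 to 0.08).

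Neat1 was 22.72, 18.87, 17.39 and 16.17 CPM in the Sham + VH libraries of the thalamus at 3 dpi and 23.37, 17, 13.83 and 16.82 CPM in those of the hypothalamus, which overlapped (log2 difference 0.20, FDR = 0.342). The hippocampus was below the thalamus by a log2 difference of -0.48 (FDR = 0.0124) at 3 dpi and -0.44 (FDR = 0.0219) at 29 dpi, and at 29 dpi the thalamus was above the hypothalamus by 0.40 (FDR = 0.0374). The 3 dpi call was lost without hippocampal replicate 3 or thalamic replicate 1 (both -0.36). At 29 dpi the call between hippocampus and thalamus was lost without hippocampal replicate 2 (-0.40), 3 (-0.40) or 4 (-0.35), and that between thalamus and hypothalamus without hypothalamic replicate 3 (0.35) or thalamic replicate 3 (0.40).

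**Figure D4:**
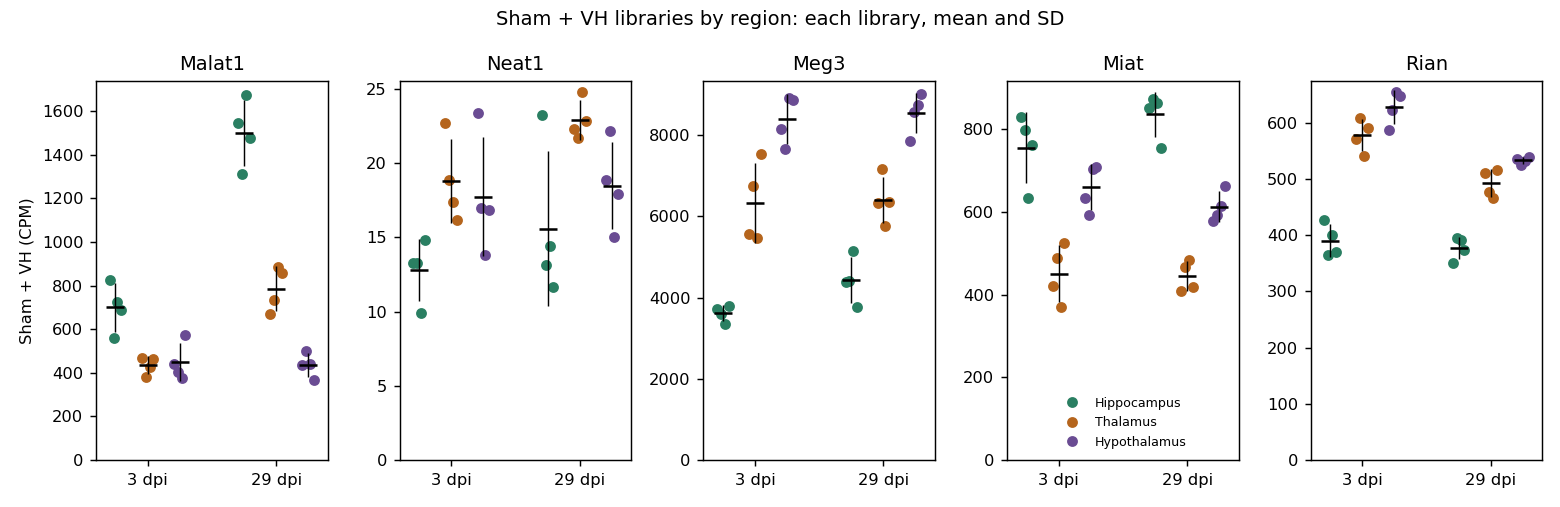
CPM of each member (vertical axis, from 0, on its own scale) in the Sham + VH libraries by region, for both time points; points are libraries, bars the mean and vertical lines the SD (n = 4). Malat1 and Miat are highest in the hippocampus, and Meg3 and Rian lowest there. CPM were scaled within each region, so the distances between regions need not match the log2 differences from the fit of 48 libraries.

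In the order of the 12 group means of a time point, neighbouring groups mostly overlapped, as groups sorted by their mean tend to do. The share over all genes was not computed, and CPM were scaled within each region. Nothing is therefore read from these counts, and the order of Malat1 at 29 dpi is a description. For Malat1 at 3 dpi all 11 neighbouring pairs overlapped in their libraries, from hippocampal Sham + CD (799.6 CPM) down to thalamic Sham + VH (434.6 CPM). At 29 dpi 9 of 11 overlapped, and the order ran from hippocampal Sham + VH (1502 CPM) to hypothalamic Sham + CD (386.6 CPM), with gaps between hippocampal TBI + VH and TBI + CD and between thalamic TBI + VH and Sham + CD.

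Within groups, the libraries varied together in Meg3, Miat and Rian. Over the 48 libraries of each time point, the deviations from the group mean (log2 CPM) of Meg3 and Miat correlated at r = 0.83 at 3 dpi and 0.675 at 29 dpi, those of Meg3 and Rian at 0.676 and 0.581, and those of Miat and Rian at 0.408 and 0.325. Neat1 and Miat correlated at 0.0597 at 3 dpi and 0.422 at 29 dpi. Malat1 correlated with the other members at no more than 0.121 at 3 dpi and 0.141 at 29 dpi, and with log2 library size at -0.0719 and 0.105. Meg3, Miat and Rian correlated with log2 library size at 0.218, 0.122 and 0.33 at 3 dpi and -0.0269, -0.0583 and 0.0051 at 29 dpi. With the log2 TMM factor they correlated at 0.31, 0.26 and 0.322 at 3 dpi and 0.0404, 0.151 and -0.0456 at 29 dpi, and Malat1 at 0.251 and 0.0501. These are descriptions over libraries that share the tissue and the sequencing, with no test.

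**Figure D5:**
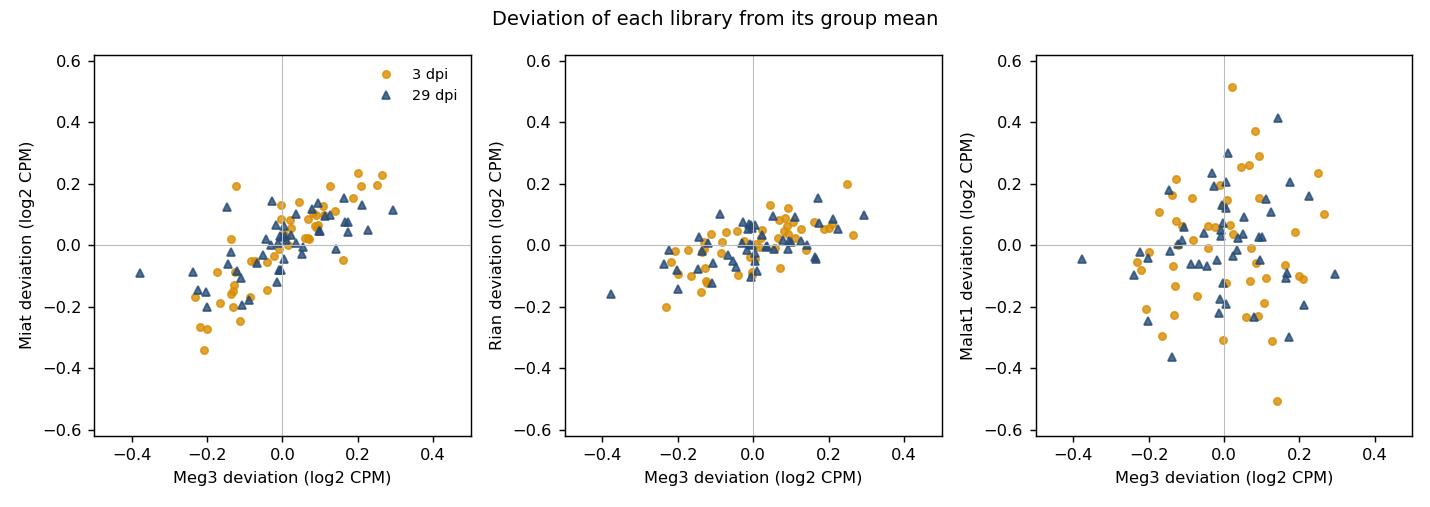
Deviation of each library from its group mean in log2 CPM, for Miat, Rian and Malat1 (vertical axes) against Meg3 (horizontal axis), at 3 dpi (circles) and 29 dpi (triangles). Miat and Rian rise with Meg3 (r = 0.83 and 0.676 at 3 dpi), and Malat1 does not (r = 0.0422 at 3 dpi and 0.127 at 29 dpi).

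The genes whose deviations were most like those of a member, by the smaller of the correlations at the 2 time points among 10441 genes of at least 10 CPM, were as follows. For Meg3 they were Snhg11 (0.876 and 0.876), Nav1 (0.814 and 0.845), Srrm1 (0.81 and 0.808), L3mbtl1 (0.786 and 0.82) and Cacna1b (0.877 and 0.747). For Miat they were Snrnp70 (0.779 and 0.767), Tnrc6c (0.82 and 0.755), Leng8, Pkd1 and Kmt2b, and for Rian they were DQ267101, the small nucleolar RNA gene inside it (0.924 and 0.803), Nek1, Gnl3l, Kif3a and Zfp941. The likeness was lower for Neat1, with Adamtsl4 (0.6 and 0.571), Tmem98, Dock5, Fgfr2 and Ppfibp2, and lowest for Malat1, with BC071253 (0.508 and 0.469), Cspp1, Prex2, Zfp36l1 and Nbeal1.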

How the data were processed

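Poly(A)-selected, stranded RNA from 96 mouse brain samples (4 per group, labelled as separate samples) was sequenced. The authors aligned reads to mm10 and counted them on genes with HTSeq 0.9.1; the deposited values are raw counts for 32594 genes at each time point. The annotation, strand setting and treatment of multimapping reads are not given in the sources used here. The authors' own tests used DESeq2 1.16.1.

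The 16 libraries of each region and time point were fitted together with edgeR 4.0.16 (R 4.3.3): filterByExpr, TMM, 2-sided quasi-likelihood F test, Benjamini-Hochberg FDR over all genes, called at FDR under 0.05 and absolute log2 fold change above 0.32. Regions were compared in fits of 48 libraries per time point. CPM were TMM-scaled within each region and time point. Log2 CPM used a prior count of 2. Alternatives included DESeq2 1.42.0, other scalings, no filter, covariates, a replicate block and each library left out. The fits were tested on simulated data. P-values measure the spread between labelled samples.

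The members and gene lists were chosen with earlier results of these data known. Named genes are the members, the 5 genes most like each, neighbours within 250 kb of at least 1 CPM, and of each list the 4 most abundant and the called genes. One such gene is not reported here. Coordinates and transcript ends come from GENCODE vM21. Of 144 replicate pairs, 0 held identical counts.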

Additional observations from a re-analysis of the deposited data

Results flagged for a closer look

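Of 120 groups of 4 libraries (5 genes in 24 groups), 5 held a library whose gap to its nearest neighbour exceeded Dixon's 95% critical value for 4 samples, and chance alone gives about 1 in 20. Malat1 in the thalamus at 3 dpi was 528.7 CPM in TBI + VH replicate 3, against 418.8 to 432.7 CPM in the others. Malat1 in the hippocampus at 29 dpi was 1450 CPM in TBI + VH replicate 4, against 1189 to 1232 CPM, and Malat1 in the hypothalamus at 29 dpi was 453 CPM in Sham + CD replicate 4, against 357.7 to 368.7 CPM. Neat1 in the hippocampus at 3 dpi was 26.14 CPM in TBI + CD replicate 1, against 15.02 to 16.35 CPM. Miat in the hippocampus at 29 dpi was 754.3 CPM in Sham + VH replicate 4, against 852.3 to 872.1 CPM.

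For Neat1 at 3 dpi the difference from Sham + VH was not the same in the hippocampus and the hypothalamus, by a log2 value of 0.813 for TBI + VH (FDR = 0.021) and 0.81 for TBI + CD (FDR = 0.0217), in edgeR's test of the difference itself. Both comparisons share the Sham + VH libraries, and that of TBI + CD holds the drug as well as the injury.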

How the results depend on the processing

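Of 5220 values of the members under alternative settings, 5156 kept their side of the threshold (or, untested, moved by less than the replicate SD), and no called value changed sign. Of values not called in either fit, 223 changed sign. Calls were lost 25 times when 1 library was left out and 6 times under other settings, and gained 18 and 14 times; the causes were not tested. The Malat1 differences at 29 dpi ranged from 0.93 to 1.078 (hypothalamus, TBI + VH), from -0.87 to -0.67 (hippocampus, TBI + CD) and from -0.65 to -0.51 (thalamus, TBI + CD).

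Between thalamus and hypothalamus at 29 dpi, Meg3 was -0.3166 with DESeq2 and with RLE factors and -0.3025 without a filter, and Neat1 was 0.4109 in the 12 Sham + VH libraries alone (FDR = 0.0632) and 0.3067 with total counts (FDR = 0.111), none called. Miat between hippocampus and hypothalamus at 3 dpi was 0.1887 with total counts. With 1 library left out, ranges at 29 dpi were -0.3571 to -0.2506 (Meg3, thalamus to hypothalamus), -0.3863 to -0.3035 (Miat, same regions), 0.3463 to 0.5274 (Neat1, same regions), -0.7311 to -0.3489 (Neat1, hippocampus to thalamus) and -0.3489 to -0.2815 (Rian, hippocampus to hypothalamus), and at 3 dpi -0.5407 to -0.3593 (Neat1, hippocampus to thalamus). Leaving out a library also changed the reference library of TMM: the log2 scaling of thalamus to hypothalamus at 29 dpi was -0.0884 with all libraries and -0.132 to -0.118 otherwise.

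The number of genes called moved as follows. With 1 library left out it ran from 6 to 25 (hippocampus, TBI + CD), 0 to 10 (thalamus, TBI + CD) and 0 to 2 (hypothalamus, TBI + VH) at 29 dpi. TBI + CD against Sham + VH in the hippocampus at 29 dpi gave 20 genes, 52 with DESeq2, 10 with library total as covariate, 9 in the 8 libraries compared and 2 without the 4 shallow libraries, a setting added after seeing the data. TBI + VH against Sham + VH in the hypothalamus at 29 dpi gave 1, 2 with DESeq2 and in the 8 libraries, and 0 with the library total. TBI + CD against Sham + VH in the thalamus at 29 dpi gave 0, 22 with DESeq2 and 1 with choroid plexus genes as covariate. In the hippocampus at 3 dpi the choroid plexus covariate, also added after seeing the data, gave 603 (TBI + VH) and 1223 (TBI + CD), and the FDR alone 5570 for TBI + CD against Sham + CD. For TBI + VH against Sham + VH that covariate cannot be separated from the group.

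Replicate numbers in the labels were not stated to pair samples: all 4 same-numbered correlations exceeded 0.1 in 3 of 36 pairs of groups. With the replicate number as a block, 2 of 270 member calls changed: Neat1 for TBI + CD against Sham + VH in the hippocampus at 3 dpi (0.5028, FDR = 0.031) and the difference of the TBI + VH effect between hippocampus and thalamus (0.6359, FDR = 0.0417) were then called.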
